A study of Mus musculus with 12 samples.

Results

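The 10 genes described here form the core of the Hippo pathway: the coactivators Yap1 and Wwtr1 (which encodes TAZ), the DNA-binding factors Tead1, Tead2, Tead3 and Tead4, the kinases Lats1 and Lats2, the upstream scaffold Nf2 and the Tead-binding competitor Vgll4. They were found by gene symbol in a count table of 53599 genes. All 10 were present, and all 10 were among the 16210 genes that passed the filter on low counts. The study sequenced RNA from 12 libraries of cells sorted from mouse liver, 3 in each of 4 groups, to follow hepatocytes as they take on biliary features. All mice were labelled wild type and received AAV8-TBG-Cre, a virus that carries Cre under the hepatocyte promoter TBG and so marks hepatocytes and their descendants. From 1 week after the virus they were given a diet with 0.1% DDC, an agent of bile duct injury, for 8 weeks. The early group was EGFP+ Cd24- Epcam-, the intermediate group EGFP+ Cd24+ Epcam-, the full group EGFP+ Cd24+ Epcam+, and the biliary epithelial cells (BEC) EGFP- Epcam+. Virus and DDC were thus shared by all 4 groups, and uninjured cells were not analysed here. The labels used here give no strain, age or reporter allele. They do not say whether replicates were separate mice, so p-values measure only the spread between these libraries, which may be technical.

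In the Hippo pathway, Lats1 and Lats2 phosphorylate Yap1 and TAZ, which keeps both proteins out of the nucleus and promotes their breakdown. When the kinases are inactive, Yap1 and TAZ enter the nucleus and act on genes through Tead factors, which bind DNA. Nf2 (Merlin) promotes Lats activity at the cell cortex, and Vgll4 competes with Yap1 and TAZ for Tead. In the liver the pathway is known for the control of organ size and for its part in biliary identity. RNA levels show neither the phosphorylation nor the location of these proteins.

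Total counts were 15112893 to 19731887 per library, and levels are given in CPM, counts scaled to a common total, with library sizes adjusted by TMM factors. The summed level of 7 hepatocyte markers was 93306 to 97161 CPM in early, 14342 to 18731 in intermediate, 3161 to 4144 in full and 1973 to 2597 in BEC. That of 7 biliary markers ran the other way, at 951 to 1912 CPM in early, 9179 to 12091 in intermediate, 11461 to 14722 in full and 13728 to 17092 in BEC. The hepatocyte sum thus set all 4 groups apart in the order of their labels. The biliary sum set early apart, but full overlapped both intermediate and BEC in it, and its list holds Epcam, a marker of the sort. Markers of other cells moved as well: the sum of 8 stellate cell and fibroblast markers was 95.6 to 273 CPM in early and 44.8 to 74.2 in full, and that of 7 endothelial markers 15.3 to 22.01 and 3.74 to 6.15. The sum of 6 macrophage markers was 22.3 to 23.3 CPM in early, 29.4 to 35.0 in intermediate, 64.1 to 86.4 in full and 132 to 146 in BEC, mostly through Csf1r. Single markers went against their sum: Cd68 fell from early to full (log2 -3.11) and Vwf rose from early to intermediate (log2 1.65). The sum of 3 erythroid markers, nearly all Alas2, was 18.7 to 32.9 CPM in early, 2.26 to 3.17 in intermediate, 0.213 to 0.787 in full and 0.385 to 1.23 in BEC. None of the 21 stellate cell, endothelial and macrophage markers was at 0 in all libraries of a group, and the part of these cells in the results was not tested. Neutrophil, B cell, and T and NK cell markers summed to at most 0.42 CPM in any library. The share of mitochondrial transcripts moved with the groups, at 5.45% to 11.4% of counts in early (the highest in replicate 2), 3.99% to 4.75% in intermediate, 2.20% to 2.48% in full and 2.58% to 3.43% in BEC, and its part in the results was not tested.

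Among the 3 main comparisons (intermediate against early, full against intermediate and BEC against full), the largest fold changes lay in the first, led by that of Tead2. This did not hold for each gene. Nf2 (log2 0.49 against 0.36) and Tead3 (0.23 against 0.12, neither called) changed more from intermediate to full, and Yap1 most in BEC against full (-0.29). Full against early, which spans both steps, was larger still for Tead2 (5.80 against 5.23). In intermediate against early cells 8 of 10 genes were higher and 0 lower, with Yap1 and Tead3 not called. The background was 54.4% of all genes called, 28.7% higher and 25.7% lower (edgeR's quasi-likelihood test, Benjamini-Hochberg adjusted p under 0.05). The median log2 fold change of the 10 genes was 0.69, beside 0.06 over all genes tested. With DESeq2, median-of-ratios factors or only the 6 libraries compared, 6 of 10 were called, since Lats1 and Nf2 were lost, beside 55.8%, 54.4% and 55.5% of all genes called. In bulk RNA, more cells of a type and more RNA per cell cannot be told apart. From intermediate to full, Tead2, Nf2 and Vgll4 were higher and 0 were lower, where 40.7% of all genes were called, 20.8% higher and 19.8% lower. The count of 3 became 6 with the replicate number as a block, which added Wwtr1, Tead4 and Lats2 (log2 0.22, 0.39 and 0.27, edgeR adjusted p 0.0410, 0.0278 and 0.0465), where 45% of all genes were called. It was also 6 without early replicate 1 (42.1% of all genes called), 7 with DESeq2 (42.4%) or median-of-ratios factors (40.3%), and 9 with total counts only (44.5%). In BEC against full cells, Yap1, Tead2 and Vgll4 were lower and 0 were higher, where 21.3% of all genes were called and 10.6% were lower. The remaining comparisons reuse the same libraries. Full against early cells had 9 of 10 genes higher and 0 lower, beside 71.2% of all genes called, 39.1% higher and 32.1% lower. BEC against early had 9 higher and 1 lower, beside 73.1% called, 40% higher and 33% lower. BEC against intermediate had 2 higher and 2 lower, beside 52.4% called. Over all 4 groups each of the 10 genes was called, as were 75.6% of all genes. Without BEC replicate 3, 9 of 10 were called, since Tead3 had an adjusted p of 0.0559 (edgeR).

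**Figure D1:**
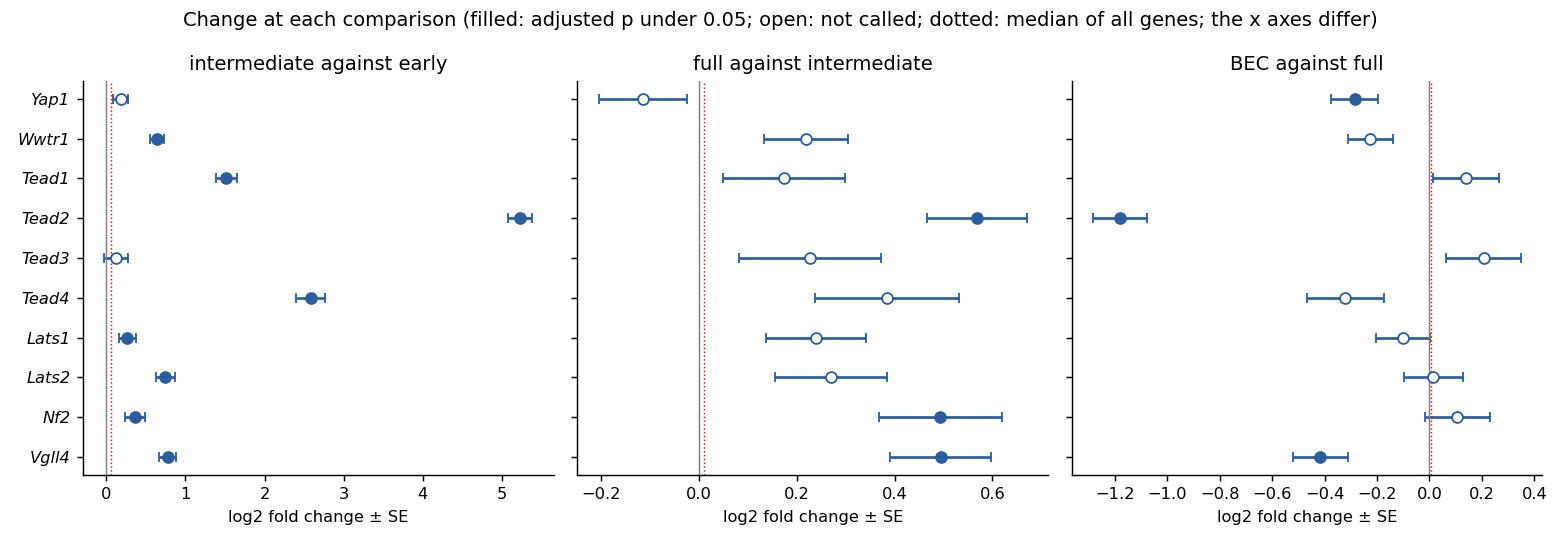
Log2 fold change ± SE (horizontal axes, which differ in range) of each core gene in the 3 main comparisons. Filled points have an adjusted p under 0.05 and the dotted line is the median of all genes; Tead2 lies at 5.23, 0.57 and -1.18, and Yap1 near 0 in the first, where its log2 fold change was 0.18 with TMM and 0.84 with total counts only.

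Scaling between libraries mattered for comparisons with early cells, whose TMM factors were 0.652 to 0.672 against 1.03 to 1.22 elsewhere. With total counts only, the median of all genes moved from 0.06 to 0.72 in intermediate against early, and 85.6% of calls were higher instead of 52.8%. For full against intermediate the median became 0.21 and the share of calls that were higher 72.6% instead of 51.2%. For full against early the median was 1.005 and the share 81.8% instead of 54.9%, for BEC against early 1.004 and 80.3% instead of 54.8%, and for BEC against intermediate 0.20 and 66.5% instead of 50.1%. On that scale all 10 core genes were called higher in intermediate than in early, as were 59.4% of all genes tested. Changes below are on the TMM scale, and ratios within a library, which need no scaling, are given beside them.

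Promoter sequences are shown for both coactivators, for Vgll4, and for Tead2, whose change was largest, because Tead factors recognise the motif GGAATG, which on the other strand reads CATTCC. They are RefSeq's, build GRCm38.p6, printed 5′ to 3′ along the gene's strand, within the 250 bases before an annotated start and without bases of annotated exons. Capitals mark the motif. The stretches are chr9:8004597-8004829 on the minus strand for Yap1, chr3:57575911-57576160 on the minus strand for Wwtr1, chr6:114969204-114969453 on the minus strand for Vgll4 and chr7:45215542-45215752 on the plus strand for Tead2.
Yap1: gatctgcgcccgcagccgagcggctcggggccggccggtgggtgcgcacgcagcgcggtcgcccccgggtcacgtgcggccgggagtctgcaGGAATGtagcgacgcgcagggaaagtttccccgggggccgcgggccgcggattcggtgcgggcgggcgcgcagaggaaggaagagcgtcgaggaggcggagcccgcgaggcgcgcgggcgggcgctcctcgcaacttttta
Wwtr1: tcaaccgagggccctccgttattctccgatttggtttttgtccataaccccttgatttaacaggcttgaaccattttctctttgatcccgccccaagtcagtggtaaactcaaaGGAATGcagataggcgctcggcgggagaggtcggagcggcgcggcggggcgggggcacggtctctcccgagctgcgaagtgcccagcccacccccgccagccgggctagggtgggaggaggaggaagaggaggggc
Vgll4: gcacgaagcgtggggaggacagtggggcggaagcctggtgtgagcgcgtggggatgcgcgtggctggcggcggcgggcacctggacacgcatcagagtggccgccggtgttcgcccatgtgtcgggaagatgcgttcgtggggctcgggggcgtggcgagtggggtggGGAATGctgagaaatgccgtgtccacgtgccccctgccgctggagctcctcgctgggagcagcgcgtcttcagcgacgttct
Tead2: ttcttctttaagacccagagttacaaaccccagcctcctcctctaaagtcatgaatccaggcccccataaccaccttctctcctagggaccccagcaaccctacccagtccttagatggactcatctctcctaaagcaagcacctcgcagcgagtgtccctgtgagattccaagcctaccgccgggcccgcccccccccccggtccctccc
The motif occurs once in each of the first 3 and not in the stretch of Tead2. Of the 8 core genes matched in the RefSeq table, 4 (Yap1, Wwtr1, Vgll4 and Tead3) had it in at least 1 window of 250 bases, searched on both strands, and 14.4% of 27025 genes did. Tead1 and Tead4 were not matched. A match describes letters and is not a measured site.

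Yap1, the coactivator that Lats kinases restrain, stayed between 110 and 169 CPM on the TMM scale. Its level was 143, 138 and 142 CPM in early replicates 1 to 3, 142, 169 and 169 in intermediate, 147, 152 and 144 in full, and 110, 127 and 126 in BEC. The BEC libraries were the lowest and overlapped no other group, whereas intermediate overlapped early and full. Its log2 fold change was 0.18 (SE 0.09, edgeR adjusted p 0.112) in intermediate against early and -0.11 (SE 0.09, adjusted p 0.342) in full against intermediate. In BEC it was lower than in full (-0.29, SE 0.09, edgeR adjusted p 0.0377) and than in intermediate (-0.40, edgeR adjusted p 0.00210). The call against full was lost without any 1 of 9 libraries: early replicate 2, intermediate replicates 2 and 3, and all of full and BEC (edgeR adjusted p up to 0.127, without BEC replicate 1). Against early, BEC stood at -0.22 (edgeR adjusted p 0.0420), a call lost when any library but intermediate replicate 1 was left out (edgeR adjusted p up to 0.155, without BEC replicate 1), and with total counts only its direction flipped to 0.65. With total counts only, BEC against intermediate was -0.20 (edgeR adjusted p 0.0842) and full against intermediate turned to 0.09. Against early, scaling set the call as well: with total counts only Yap1 was higher in intermediate (0.84, edgeR adjusted p 2.27e-06) and in full (0.93, edgeR adjusted p 4.37e-07; 0.06 and adjusted p 0.538 with TMM), and with upper quartile factors too (0.26 and 0.24, edgeR adjusted p 0.0210 and 0.0254). Without intermediate replicate 1, Yap1 was called higher in intermediate than in early (0.26, edgeR adjusted p 0.0316).

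Wwtr1, which encodes the second coactivator TAZ, rose from early to intermediate. It was at 62.9, 52.1 and 53.7 CPM in early, 90.0, 89.1 and 83.4 in intermediate, 97.8, 104 and 104 in full, and 92.2, 85.2 and 83.8 in BEC. Early libraries were the lowest and full libraries the highest, both apart from all others, and intermediate and BEC overlapped. The first step was called at 0.64 (SE 0.09, edgeR adjusted p 3.28e-05). Full against intermediate was 0.22 (SE 0.09, edgeR adjusted p 0.0566), and BEC against full -0.23 (SE 0.09, adjusted p 0.0827). The former was called under 7 of 8 alternatives, but in only 2 of 12 fits with 1 library left out (edgeR adjusted p up to 0.201). BEC exceeded early by 0.63 (edgeR adjusted p 1.71e-05).

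**Figure D2:**
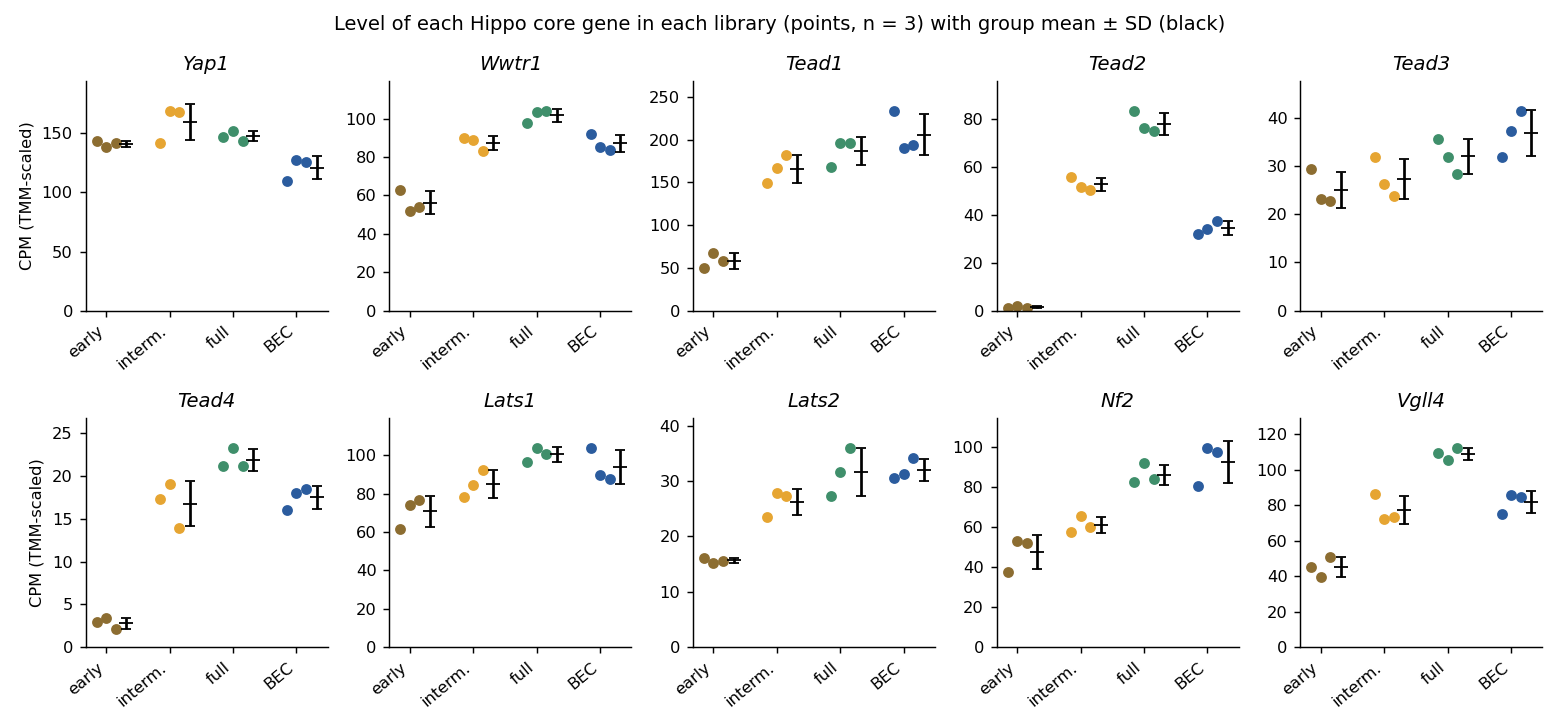
Level in CPM (vertical axes, separate for each gene) of the 10 core genes in early, intermediate (interm.), full and BEC cells. Points are the 3 libraries of a group and black bars the mean ± SD; Tead2 was 1.19 to 1.82 CPM in early and at least 31.9 in every other library, while Yap1 stayed between 110 and 169 on this TMM scale.

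Within each library, the balance of the coactivators moved from Yap1 toward Wwtr1. Per kilobase of exon, the log2 ratio of Yap1 to Wwtr1 was 0.38 ± 0.12 (SD, n = 3) in early, -0.09 ± 0.19 in intermediate, -0.42 ± 0.06 in full, and -0.48 ± 0.19 in the BEC libraries, or 1.30, 0.941, 0.749 and 0.717 as a ratio. Libraries of early, intermediate and full did not overlap, and full and BEC did. Over the 4 groups the exact permutation p was 0.000519 (adjusted 0.00156 over 6 quantities). Between 3 and 3 libraries a 2-sided exact permutation test cannot go below 0.1, which adjusted over the 36 pairs tested is 0.157. In levels per kilobase, Yap1 was 15.2 CPM per kb in early and 16.0 in full, and Wwtr1 11.8 and 21.3. The shift between groups does not depend on the exon lengths, but the point where the ratio crosses 1 does. Without division by length, Yap1 was above Wwtr1 in every library (group means 141 against 56.2 CPM in early and 121 against 87.1 in BEC).

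**Figure D3:**
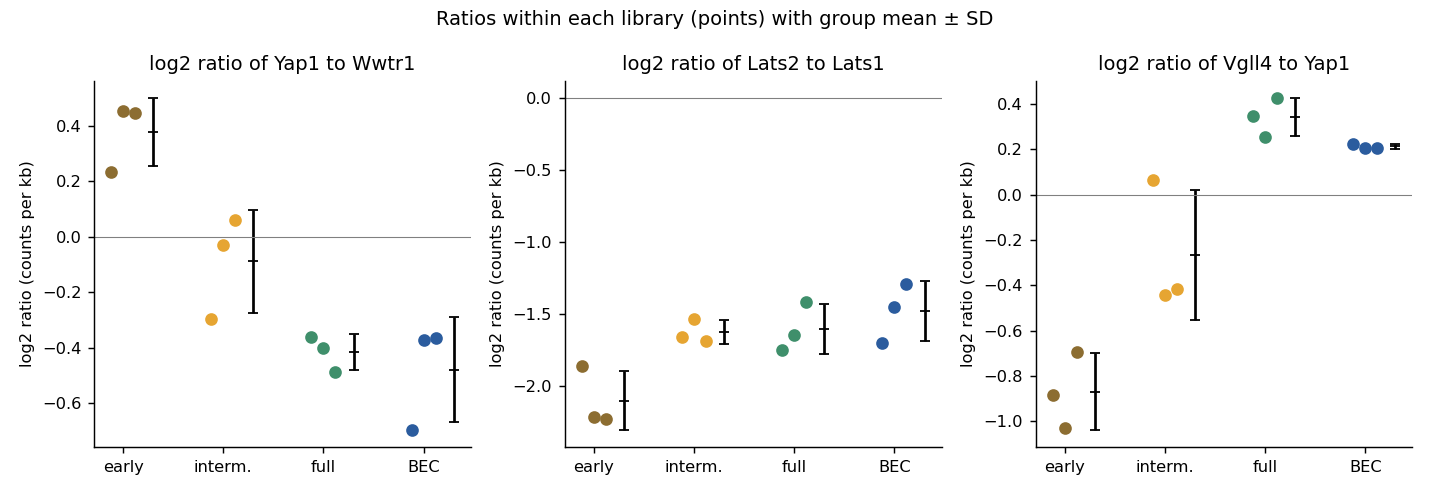
Log2 ratios of counts per kilobase (vertical axes) within each of the 3 libraries of a group (points), with the mean ± SD. The ratio of Yap1 to Wwtr1 goes from 0.38 in early to -0.48 in BEC, that of Lats2 to Lats1 from -2.10 to -1.48, and that of Vgll4 to Yap1 from -0.87 to 0.21.

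Tead factors carry Yap1 and TAZ to DNA, and 3 of the 4 genes were far lower in early cells. Tead2 was at 1.19, 1.82 and 1.21 CPM in early (15 to 20 counts), 55.8, 51.8 and 50.4 in intermediate, 83.3, 76.1 and 74.8 in full, and 31.9, 34.0 and 37.6 in BEC. The 4 groups did not overlap, and the order was early, BEC, intermediate, full. Tead2 was 37.6-fold higher in intermediate than in early (log2 5.23, SE 0.15, edgeR adjusted p 9.79e-11). It rose a further 1.48-fold to full (log2 0.57, SE 0.10, edgeR adjusted p 0.000542), and BEC was 2.26-fold lower than full (log2 -1.18, SE 0.10, edgeR adjusted p 2.60e-06). BEC was still 24.7-fold above early (edgeR adjusted p 1.14e-11).

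Tead4 also rose at the first step. It was at 2.93, 3.36 and 2.10 CPM in early (26 to 37 counts), 17.3, 19.0 and 13.9 in intermediate, 21.1, 23.3 and 21.1 in full, and 16.0, 17.9 and 18.5 in BEC. Early was apart from every other group, full was apart from intermediate and BEC, and intermediate and BEC overlapped. The first step was 5.99-fold (log2 2.58, SE 0.18, edgeR adjusted p 6.73e-08). Full against intermediate was 0.38 (SE 0.15, edgeR adjusted p 0.0523), and BEC against full -0.32 (SE 0.15, adjusted p 0.155). The former was called under 7 of 8 alternatives, but in only 4 of 12 fits with 1 library left out (edgeR adjusted p up to 0.225).

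Tead1 was 2.86-fold higher in intermediate than in early. It was at 49.3, 67.2 and 57.6 CPM in early, 149, 167 and 182 in intermediate, 169, 196 and 196 in full, and 234, 191 and 193 in BEC. Early libraries lay apart from the rest, and full overlapped its neighbours. The first step was called (log2 1.52, SE 0.13, edgeR adjusted p 4.09e-07), whereas full against intermediate was 0.17 (adjusted p 0.295) and BEC against full 0.14 (adjusted p 0.523). BEC against intermediate was 0.31 (edgeR adjusted p 0.0504), and it was called under 6 of 8 alternatives, among them the replicate block (0.32, edgeR adjusted p 0.0324). With 1 library left out it was called in only 3 of 12 fits (edgeR adjusted p up to 0.200).

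Tead3 varied least among the Tead genes. It was at 29.3, 23.2 and 22.7 CPM in early, 31.9, 26.2 and 23.8 in intermediate, 35.6, 31.8 and 28.4 in full, and 31.9, 37.3 and 41.4 in BEC. Neighbouring groups overlapped at each step, and none of the 3 main comparisons was called (log2 0.12, 0.23 and 0.21). It was higher in BEC than in early (0.56, edgeR adjusted p 0.00375) and than in intermediate (0.43, edgeR adjusted p 0.0222). The latter call was lost without intermediate replicate 2 or 3 or BEC replicate 2 or 3 (edgeR adjusted p up to 0.0988). Full against early was 0.35 (edgeR adjusted p 0.0471), lost without any 1 of early replicates 2 and 3, intermediate replicate 2, full replicates 1 and 2 and BEC replicate 2 (edgeR adjusted p up to 0.158).

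Summed per kilobase, the Tead genes stood at 9.08 ± 0.631 CPM per kb in early, 31.9 ± 0.534 in intermediate cells, 40.9 ± 0.688 in full cells and 32.7 ± 0.912 in the BEC group (SD, n = 3 each). Per kilobase, early cells had 4.28 CPM per kb of Tead1, 0.294 of Tead2, 3.73 of Tead3 and 0.778 of Tead4, and full cells 13.8, 16.3, 4.76 and 6.07. Their makeup within a library also differed. Tead2 made up 3.21% ± 0.616 of the sum in early, 34.4% ± 1.54 in intermediate, 39.9% ± 2.27 in full and 22.01% ± 1.72 in BEC (exact permutation p over the 4 groups 6.49e-05, the smallest that 369600 assignments can give, adjusted 0.00039). Tead3 went the other way, with 41.2% ± 6.45 in early, 12.7% ± 1.81 in intermediate, 11.6% ± 1.22 in full and 16.8% ± 2.15 in BEC (exact permutation p 0.00104, adjusted 0.00208). Per kilobase, early cells thus held mostly Tead1 and Tead3, and full cells mostly Tead2 and Tead1. The order of Tead2 and Tead1 in full cells depends on the exon lengths. Without division by length, Tead1 was at 187 CPM there and Tead2 at 78.1. The share of Tead1 was 47.1% ± 6.07, 38.3% ± 4.34, 33.7% ± 3.00 and 46.4% ± 5.02 (exact permutation p 0.0332). That of Tead4 was 8.50% ± 1.41 in early and 14.5% ± 2.06, 14.8% ± 0.659 and 14.9% ± 1.24 in the later groups (exact permutation p 0.0174, adjusted 0.0209). The Tead1 result was lost without any 1 of early replicates 2 and 3, intermediate replicate 2 and the full replicates (exact permutation p 0.0531 to 0.0736). Within same-numbered libraries, the Tead1 share was lower in intermediate than in early in 3 of 3, lower in full than in intermediate in 3 of 3, and higher in BEC than in full in 3 of 3. With the group labels permuted only within replicate numbers (replicate block, chosen after seeing the data), the exact permutation p was 0.0799 for Tead1, 0.00174 for Tead2 (the smallest of 576 assignments), 0.00868 for Tead3 and 0.0625 for Tead4. In full against BEC, Tead1 and Tead2 shares did not overlap: Tead1 took 30.3%, 34.8% and 36.0% in full and 52.1%, 44.4% and 42.7% in BEC, and Tead2 42.5%, 38.3% and 38.9% in full and 20.1%, 22.4% and 23.5% in BEC. Each pair had an exact permutation p of 0.1, the smallest possible.

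**Figure D4:**
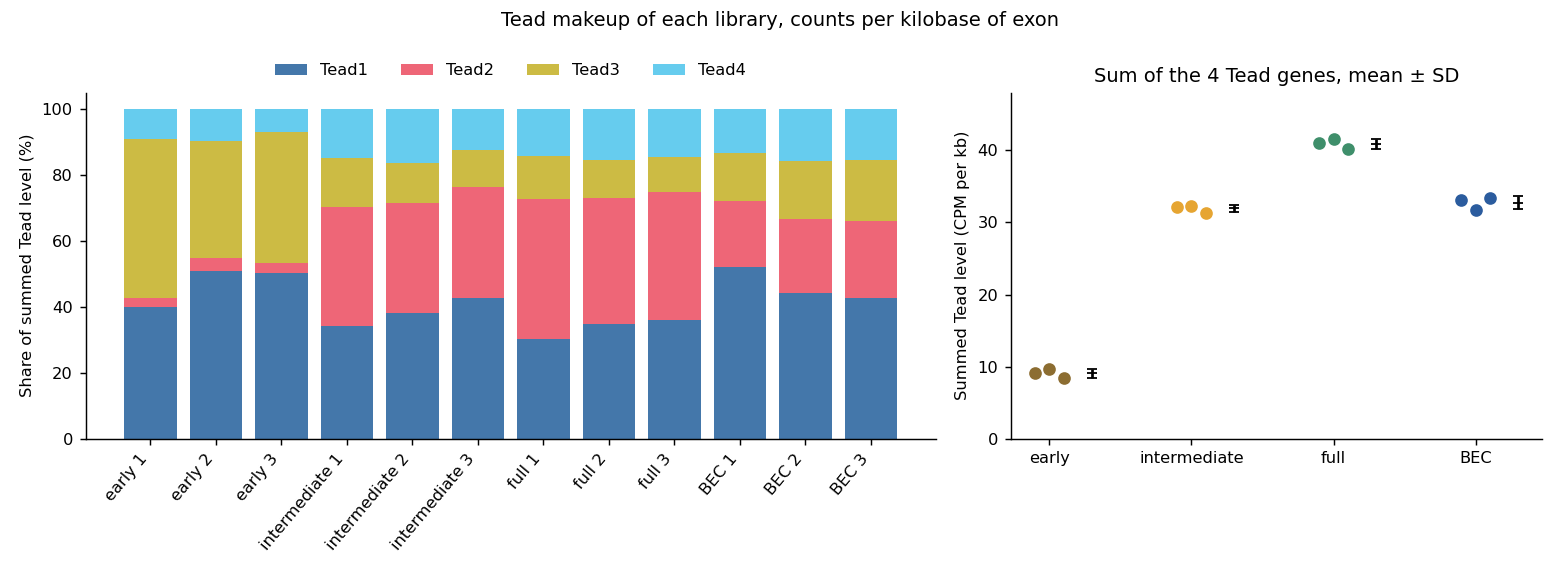
Left, the share in percent of each Tead gene in the summed Tead level of each library, as stacked bars of counts per kilobase. Right, that sum in CPM per kb (points are libraries, with the mean ± SD); Tead2 goes from 3.21% in early to 39.9% in full and 22.01% in BEC, and the sum from 9.08 to 40.9 and 32.7.

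Lats2, a kinase that is also a known Yap1 target, rose from early to intermediate. It was at 16.1, 15.3 and 15.6 CPM in early, 23.6, 27.9 and 27.3 in intermediate, 27.3, 31.7 and 36.0 in full, and 30.5, 31.3 and 34.2 in BEC. Early was apart from all later groups, full overlapped both its neighbours, and BEC was apart from intermediate. The first step was 0.74 (SE 0.12, edgeR adjusted p 0.000134), full against intermediate 0.27 (SE 0.11, adjusted p 0.0756), and BEC against full 0.01 (SE 0.11, adjusted p 0.959). Full against intermediate was called under 6 of 8 alternatives, but in only 1 of 12 fits with 1 library left out (edgeR adjusted p up to 0.323). BEC was 2.04-fold above early (edgeR adjusted p 2.94e-06). BEC against intermediate was 0.28 (edgeR adjusted p 0.0511), and it was called under 6 of 8 alternatives, among them the replicate block (0.29, edgeR adjusted p 0.0283). With 1 library left out it was called in only 2 of 12 fits (edgeR adjusted p up to 0.186). In the annotation used for lengths, Lats2 shares 2955 of 6971 exon bases with a gene on the same strand, Gm49361, which had at most 3 counts in any library, and whether reads in the shared bases were counted is not given in the sources used here.

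Lats1 was at 61.6, 74.3 and 76.8 CPM in early, 78.1, 84.7 and 92.6 in intermediate, 96.6, 104 and 101 in full, and 104, 89.6 and 87.7 in BEC. Early lay below every later library, full lay above intermediate, and BEC overlapped both. The first step was 0.26 (SE 0.10, edgeR adjusted p 0.0458), a call lost without any 1 of 8 libraries: early replicates 1 and 2, intermediate replicates 2 and 3, the full replicates and BEC replicate 2 (edgeR adjusted p up to 0.173, without early replicate 1). Full against intermediate was 0.24 (SE 0.10, edgeR adjusted p 0.0811), called under 5 of 8 alternatives but not with the replicate block. With 1 library left out it was called in only 1 of 12 fits (edgeR adjusted p up to 0.247). Full against early was called at 0.50 (edgeR adjusted p 0.000637). Within libraries the log2 ratio of Lats2 to Lats1 per kilobase was -2.10 ± 0.21 (SD, n = 3) in early, -1.63 ± 0.08 in intermediate, -1.61 ± 0.17 in full and -1.48 ± 0.21 in BEC (exact permutation p over the 4 groups 0.0111, adjusted 0.0167). Lats1 thus stayed the more abundant transcript per length in every group, at 9.72 CPM per kb in early and 12.8 in BEC against 2.25 and 4.59 for Lats2.

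Nf2, the scaffold upstream of the kinases, increased in small steps. It was at 37.6, 52.9 and 52.0 CPM in early, 57.7, 65.6 and 59.7 in intermediate, 82.3, 91.7 and 83.7 in full, and 80.3, 99.5 and 97.6 in BEC. Early, intermediate and full did not overlap, and BEC overlapped full. It was 1.41-fold higher in full than in intermediate (log2 0.49, SE 0.13, edgeR adjusted p 0.00636) and 1.95-fold higher in BEC than in early (edgeR adjusted p 1.15e-05). The first step was 0.36 (SE 0.13, edgeR adjusted p 0.0281), and it was not called without early replicate 1 (0.22, adjusted p 0.108) or intermediate replicate 2 (0.31, adjusted p 0.104).

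Vgll4, which competes with the coactivators for Tead, peaked in full cells. It was at 45.2, 39.4 and 51.2 CPM in early, 86.6, 72.4 and 73.6 in intermediate, 109, 106 and 112 in full, and 74.9, 85.6 and 84.9 in BEC. Full libraries lay above all others, early below all others, and intermediate and BEC overlapped. It rose 1.71-fold to intermediate (log2 0.78, SE 0.11, edgeR adjusted p 3.40e-05) and 1.41-fold to full (log2 0.49, SE 0.10, edgeR adjusted p 0.00181), and was 1.33-fold lower in BEC than in full (log2 -0.42, SE 0.10, edgeR adjusted p 0.0102). Its log2 ratio to Yap1 per kilobase was -0.87 ± 0.17 (SD, n = 3) in early, -0.26 ± 0.29 in intermediate, 0.34 ± 0.09 in full and 0.21 ± 0.01 in BEC. That ratio was below 0 in every early library and above 0 in every full and BEC library. Its crossing of 0 depends on the exon lengths. Without division by length, Vgll4 was below Yap1 in every library (group means 109 against 148 CPM in full and 81.8 against 121 in BEC).

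The rest of the pathway was read from a list of 37 genes, of which 34 were tested. In intermediate against early 22 were higher and 2 lower (median log2 0.41), in full against intermediate 11 and 2 (median 0.19), and in BEC against full 3 and 2 (median 0.03), beside the background shares given above. Among the 5 upstream kinases and adaptors, Sav1, a scaffold of the Mst kinases, rose at both steps of the hepatocyte-derived cells (17.8, 26.2, 33.8 and 37.0 CPM from early to BEC; log2 0.56 and 0.36). The Mst2 gene Stk3 (14.6, 19.0, 22.8 and 21.3 CPM) and the Lats cofactor Mob1a (83.0, 108, 105 and 98.7 CPM) were called higher at the first step and not at the second. The Mst1 gene Stk4, at 35.4, 38.6, 40.2 and 49.5 CPM, was not called at any of the 3 steps. Mob1b was lower in full than in intermediate (92.3 against 112 CPM, log2 -0.28, edgeR adjusted p 0.0221). Of 12 related kinases, 6 were higher and 1 lower at the first step, and 3 and 1 at the second, shares near the 54.4% and 40.7% of all genes called. Tnik, a kinase of the Map4k family, went from 1.03 CPM in early to 6.28 in intermediate and 18.9 in full (second step log2 1.59, SE 0.23, edgeR adjusted p 8.48e-05).

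Regulators at the apical membrane and junctions held the largest changes of the list. Of 14 such genes, 11 were higher in intermediate than in early and 1 was lower (Crb3, named after its values were seen). In full against intermediate 7 were higher and 0 lower, and in BEC against full 2 were higher and 1 lower. All genes tested were higher in 28.7%, 20.8% and 10.7% of cases and lower in 25.7%, 19.8% and 10.6%, and the 3 of 14 called in BEC against full lie near the 21.3% of all genes. Ptpn14, a phosphatase that restrains Yap1, was at 3.99, 81.8, 235 and 183 CPM (first step log2 4.34, SE 0.30, edgeR adjusted p 6.27e-08; second step 1.52, SE 0.24, adjusted p 0.00019). Frmd6 (19.4, 93.7, 134 and 114 CPM) rose by a log2 of 2.27 at the first step. Wtip (6.05, 30.2, 42.5 and 27.6 CPM) rose by 2.32 and was then lower in BEC than in full (log2 -0.62, edgeR adjusted p 0.0103). The angiomotins, which bind and retain Yap1, were each higher in intermediate than in early. Amot was not called at the second step (59.1, 123, 126 and 152 CPM), and Amotl2 was higher at both (73.8, 146, 234 and 235 CPM). Amotl1 was highest in BEC (0.957, 5.28, 86.9 and 151 CPM; log2 4.05, SE 0.32, edgeR adjusted p 5.06e-07 for full against intermediate, and 0.80, SE 0.26, adjusted p 0.0445 for BEC against full). Wwc1 (KIBRA) was higher at the first step and in BEC against full (166, 302, 342 and 443 CPM). Rassf1 was lower in BEC than in full (13.1 against 18.6 CPM, log2 -0.51, edgeR adjusted p 0.0187). The Vgll4 relatives Vgll1, Vgll2 and Vgll3 had at most 0, 1 and 6 counts in any library and were not tested.

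**Figure D5:**
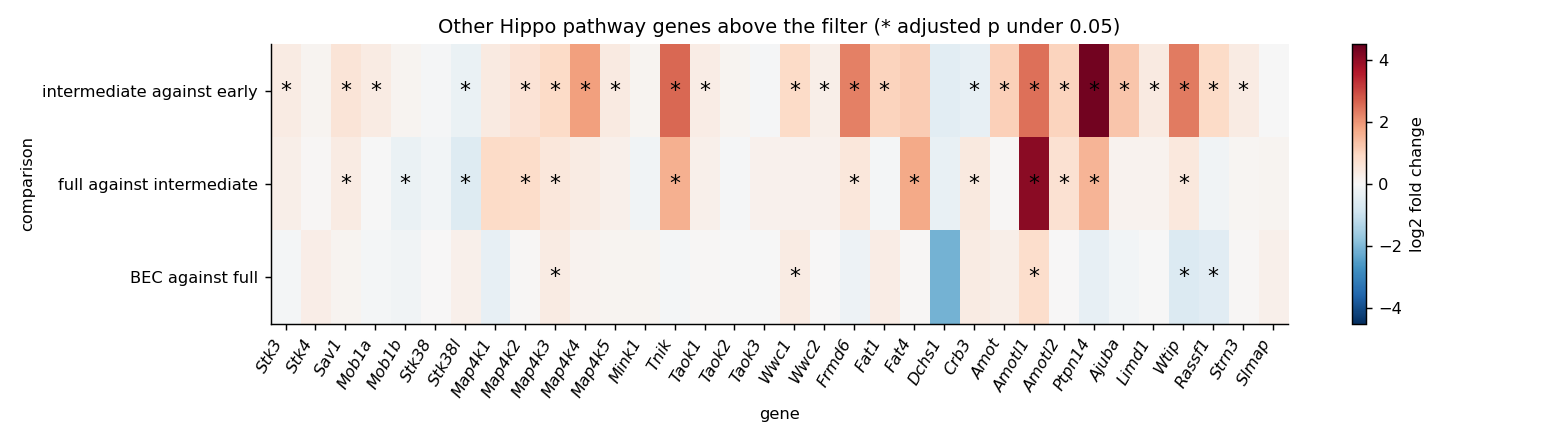
Log2 fold change (colour) of the 34 tested genes of the wider Hippo pathway (columns) in the 3 main comparisons (rows), where an asterisk marks an adjusted p under 0.05. The first row holds 22 genes called higher and 2 called lower with TMM scaling, and 31 higher and 0 lower with total counts only; Ptpn14 at 4.34 is its strongest.

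Transcripts known to respond to Yap1 and TAZ were followed in a signature of 22 genes, of which 21 were tested; it holds Lats2 itself and, from the list above, Amotl2 and Ptpn14. In intermediate against early 14 were higher and 1 lower (median log2 1.31), in full against intermediate 11 and 1 (median 0.53), and in BEC against full 5 and 2 (median 0.17). Over all genes tested the shares higher and lower were 28.7% and 25.7%, 20.8% and 19.8%, and 10.7% and 10.6%. Ccn2 was at 8.62 CPM in early, 256 in intermediate, 812 in full and 688 in BEC, and both steps were called (log2 4.90 and 1.67). Ankrd1 was at 2.40, 99.2, 343 and 461 CPM, likewise called at both steps (log2 5.39 and 1.79). Ccn1 was called at the first step and not at the second, at 698 CPM in early and 1762 in intermediate (log2 1.34, edgeR adjusted p 0.00497). Unlike the other 2, Ccn1 was not called in BEC against early (log2 0.42, edgeR adjusted p 0.278). It was lower in BEC than in intermediate (log2 -0.91, edgeR adjusted p 0.0388), though their libraries overlapped. Yap1 RNA, given above, was not called at either step on the TMM scale.

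Across the 12 libraries, the log2 levels of Yap1 and of the other 9 core genes had Pearson correlations from -0.49 (Tead3) to 0.13 (Tead2). Among the other 9 genes the 36 correlations ran from 0.32 to 0.99, the latter for Tead2 and Tead4. These points share the 4 groups and the scaling factors, so the values are descriptions. Among all genes above 10 CPM in a group, the patterns most like Tead2 were those of Marcks (r = 0.996), Zfyve16 (0.995) and Ddah2 (0.995). Among those most like Wwtr1 were Cpne8 (0.987) and Garnl3 (0.987), and most like Yap1 were Otud1 (0.948), Fam222a (0.941) and Atrip (0.931). Marcks was at 3.27, 216, 366 and 172 CPM from early to BEC, and so was highest in full, as Tead2 was.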

How the data were processed

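RNA of 12 libraries of sorted mouse liver cells (3 per group, grouped by the labels' sort markers) was analysed from the counts per gene that the authors deposited as whole numbers. The submitters' processing notes name STAR 2.7.10b, featureCounts 2.0.1, DESeq2 and GRCm39, with no role or order. Annotation, strandedness and treatment of multimapping reads are not given in the sources used here. A second deposited table holds a normalized signal, the same counts divided by 1 factor per library (0.623 to 1.33), and was read only for this check.

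All libraries were fitted together with edgeR 4.0.16 (R 4.3.3): filterByExpr (16210 genes, at least 99.86% of counts in each library), TMM factors, quasi-likelihood tests and Benjamini-Hochberg adjustment over all genes tested. Calls are adjusted p under 0.05, and SE is the log2 fold change over the square root of F. The biological coefficient of variation was 14.8%. A level of 3 counts corresponds to 0.128 to 0.273 CPM. Exon lengths came from GENCODE M21 (GRCm38), which is not the build of the counts. Within-library shares and ratios were tested with 2-sided exact permutation tests. Replicates of a group differed by more than counting noise (chi-square per degree of freedom 4.95 to 52.1).

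The members and lists were chosen with earlier results of these data known. The text names all 10 members, 12 set genes of the pathway list, the 3 strongest calls of that list per main comparison at 10 CPM or more, 3 targets, and the 3 genes most correlated with Yap1, Wwtr1 and Tead2, of which 1 is not reported here. Alternatives were DESeq2 1.42.0, other scaling and filters, 6 libraries, a replicate block and leaving out each library. Same-numbered libraries deviated together in the main comparisons (r 0.121 to 0.293, 0.137 to 0.322 and 0.170 to 0.257). The numbers come from the sample titles. They were used to pair libraries only in the replicate block and in the comparison of Tead1 shares within same-numbered libraries. The main fit did not pair the libraries. Tested on simulated data for intermediate against early, the fit recovered 86.5% of 200 genes changed by a log2 of 1, among 15720 genes, and 4.95% of its 182 calls were false. The changed genes had a mean of at least 50 counts and moved up and down in equal numbers, and no other gene differed between groups. The simulation thus held neither the broad changes nor the unequal TMM factors of the data, so it does not cover calls that depend on scaling.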

Additional observations from a re-analysis of the deposited data

How the results depend on the processing

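In full against intermediate, the count of core genes called was 3, but it was 7 with DESeq2, median-of-ratios factors or upper quartile factors (the last chosen after seeing the data), 9 with total counts only, 6 with a mean of at least 50 counts or only the 6 libraries compared, and 6 with the replicate block, beside 42.4%, 40.3%, 40.4%, 44.5%, 46.4%, 45.6% and 45% of all genes called (40.7% in the first); the cause was not tested. In the pathway list that comparison gave 13, and 22 with total counts only or 20 with upper quartile factors. BEC against full gave 5 core and 8 list genes with 6 libraries, in place of 3 and 5 (26.3% of all genes called, in place of 21.3%), and BEC against intermediate 7 core genes with total counts only, in place of 4 (54.1%, in place of 52.4%). In full against early, BEC against early and BEC against intermediate the correlations of same-numbered libraries were also above 0, but the lowest (0.0960, 0.0442 and 0.0839) was under 0.1. With the replicate block, Tead1 and Lats2 were also called in BEC against intermediate, as with DESeq2, median-of-ratios, total counts only, a mean of 50 and upper quartile factors. The block gave 6 core genes there in place of 4 (55.8% of all genes called); besides these and the 3 genes named for full against intermediate, it changed no other call of a core gene. Leaving out 1 library gave 6 to 9 core genes in intermediate against early, 3 to 6 in full against intermediate, 2 to 4 in BEC against full, 8 to 9 in full against early, 9 to 10 in BEC against early and over all groups, and 3 to 5 in BEC against intermediate. In the pathway list it gave 21 to 24, 8 to 15 (8 without full replicate 2) and 2 to 6 (2 without full replicate 2 or 3, 3 without BEC replicate 1 or 2). The Tead1 share then differed by -12.3 to -6.67, -6.71 to -2.38 and 9.81 to 14.5 percentage points at the 3 main comparisons, and without division by length by -3.21, -4.48 and 11.1 (exact permutation p over the 4 groups 0.0887). With permutation within replicate numbers (replicate block), the p of the Tead1 share (differences -8.78, -4.60 and 12.7) and of the Tead4 share (6.03, 0.296 and 0.0262) was no longer under 0.05, and the other 4 quantities kept theirs. The Tead4 share differed by -0.817 to 1.21 in full minus intermediate and -0.412 to 0.734 in BEC minus full, and by -0.889 there without division by length. The log2 ratio of Yap1 to Wwtr1 in BEC minus full was -0.119 to 0.0472, and that of Lats2 to Lats1 in full minus intermediate -0.0713 to 0.0980. Uncalled core genes turned direction: Wwtr1 in BEC against intermediate to 0.0448 (DESeq2), 0.0448 (median-of-ratios), 0.196 (total counts only), 0.0319 (mean of 50) and 0.0930 (upper quartile), and between -0.0511 and 0.0188 with 1 library left out; Lats2 in BEC against full to -0.0159 (no filter) and -0.00208 (6 libraries), and between -0.0839 and 0.116; Tead4 in BEC against intermediate between -0.0580 and 0.167. With total counts only, Yap1 turned to 0.0875 in full against intermediate and to 0.647 in BEC against early. Lats1, Nf2 (both intermediate against early) and Tead3 (full against early) were not called with DESeq2 (adjusted p 0.116, 0.0549 and 0.0593), median-of-ratios factors (0.105, 0.0547 and 0.0573) or only the 6 libraries compared (0.0728, 0.0522 and 0.0672), and Yap1 in BEC against full was not called with no filter (-0.315, adjusted p 0.0740). Yap1 in BEC against early was not called with no filter (-0.200, adjusted p 0.195), a mean of 50 counts (-0.196, adjusted p 0.0529) or upper quartile factors (-0.0370, adjusted p 0.719). A fit over any of the 4 groups needs more than the 6 libraries of a pair, so that alternative was not run for it. At 15 to 37 counts, Tead2 and Tead4 in early cells are the least precise levels.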
